A study of Mus musculus with 10 samples.

Results

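The imprinted genes whose domains are textbook cases of control by Ctcf or by a methylated control region, which are H19, Igf2, Cdkn1c, Phlda2, Kcnq1ot1, Dlk1, Meg3, Peg3, Grb10 and Igf2r, were followed through chromatin immunoprecipitation sequencing (ChIP-seq) of hepatocytes with and without Arid1a. They were taken from a list of names and not by a cut-off on any measured value, though with earlier results of these data known. They made up 10 of the 30751 protein-coding, lincRNA and antisense genes of the annotation. Each gene was studied over its body plus 50 kb on each side in mm10, and overlapping windows were merged into 7 windows in 6 domains, 1270071 bp in all. The cells were AB17, a line of hepatocytes from a C57BL/6 mouse with loxP sites around Arid1a (Arid1a fl/fl), immortalized with SV40 large T antigen and an activated H-Ras. Both genotypes carried those 2 oncogenes. Wildtype (WT) cells had received an adenovirus with GFP (Ad-GFP), and knockout (KO) cells, Arid1a-/-, an adenovirus with Cre (Ad-Cre). The 8 peak lists used were those of Ctcf, Rad21, Arid1a and Brg1 in WT cells and of H3K9me3 and H3K27me3 in both genotypes. The 10 samples also included 2 inputs, 1 per genotype. Each list came from 1 library, so no difference had a replicate error and none was tested, and read depth is unknown from lists.

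Each entry of a list was a summit, the position of 1 peak, with a −log10 q-value, which ranks peaks within a list but is not a level of binding and was not compared between lists. Ctcf, Rad21, Arid1a and Brg1 were not profiled in KO cells, so what follows on these proteins concerns WT cells only. The mice were inbred and the lists held no reads, so the maternal and paternal alleles cannot be told apart anywhere below. Expression was not measured in these lists. The 5 hepatocyte genes Alb, Apoa1, Ttr, Hnf4a and Foxa2 served as the only check of cell type, and it was a weak one. Alb had 0 summits of every list within 2 kb of its start, Ttr 1 Brg1 summit only, and Apoa1 1 each of Ctcf, Rad21 and WT H3K9me3. Of the hepatocyte transcription factors, Hnf4a had 2 H3K27me3 summits in WT and 3 in KO, and Foxa2 had 2 Ctcf, 2 Rad21, 2 Arid1a and 3 Brg1 summits, with 1 of H3K9me3 in KO and 1 of H3K27me3 in WT.

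In imprinting, 1 parental copy of a gene is silenced according to the parent that passed it on. The difference is set in the germ line as DNA methylation of 1 copy of a control region, called a germline differentially methylated region (DMR). At H19 and Igf2, Ctcf, a zinc finger protein that binds a long motif and blocks enhancers, holds the unmethylated maternal control region and keeps the enhancers from Igf2. Rad21 is a subunit of cohesin, the ring that extrudes chromatin loops until Ctcf stops it. Brg1 is the ATPase, and Arid1a a subunit, of the SWI/SNF nucleosome remodeler. H3K9me3 marks methylated control regions and heterochromatin, and the protein Zfp57 recruits the machinery for it to the methylated form of the hexamer TGCCGC. H3K27me3 is laid down by Polycomb at silent developmental promoters.

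The sequences below show what lay under the Ctcf summits of the control regions. A weight matrix of 19 bases was learned from strong Ctcf summits outside the 7 windows, and a match was a score that 5% of windows shifted by 2 kb from a summit pass, a threshold relaxed from 1% after the scores were seen. Matches stood within 100 bp of 40.6% of all Ctcf summits, and of 88.0% of those with a −log10 q of at least 20. The matrix was learned from 16421 of the 16434 summits of that strength, so 88.0% is a rate on its own training summits. The 71.9% given next also includes them, while the imprinted windows hold none of them. In the imprinted windows, 27 of 52 Ctcf summits had a match, 19 of the 27 with a −log10 q of at least 5 and 8 of the 25 below it, 70.4% and 32.0%, against 71.9% and 18.7% of all Ctcf summits at those strengths. The control region upstream of H19 held 3 matches, all on the minus strand, which is also the strand of H19. At the 1% threshold it held 0, and control regions with a match numbered 2 in place of 7. They are printed on that strand in GRCm38 with the match in capitals:
H19 control region, chr7:142580302-142580330: agacgATGCCGCGTGGTGGCAGTAcaata
H19 control region, chr7:142582027-142582055: gggagTTGCCGCGTGGTGGCAGCAaaatc
H19 control region, chr7:142582983-142583011: gatggTGTCCAGAAGGGGACAACGggagc
The first pair share an unbroken stretch of 16 bases, TGCCGCGTGGTGGCAG. The centre of the first lay 7 bp from the Ctcf summit, and the other 2 lay 1718 and 2674 bp from it, with no listed summit of their own.

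The Peg3 control region, which spans the Peg3 start, held 5 matches, all in an intron of Peg3, and 3 of them were near copies of each other, close together. They are printed on the minus strand:
Peg3 DMR, chr7:6727274-6727302: tttgtTGGCCACAAGGGGGTGTCTgaatt
Peg3 DMR, chr7:6727396-6727424: tttgtTGGCCACAAGGGGGCATCTggtat
Peg3 DMR, chr7:6727534-6727562: tttgtTGGTCACAAGGGGGCGTCTggtat
The middle copy lay 13 bp from a Ctcf summit. The Meg3 promoter region held 4 matches without a Ctcf summit, and its best, in a Meg3 exon on the plus strand, scored above every match in the other control regions:
Meg3 promoter DMR, chr12:109542162-109542190: attgaTGGCCGCAAGAGGGCGCTGgtggc
The nearest Ctcf summit to it lay 52970 bp away. A motif in the reference is a description of letters only, and does not say whether the site is methylated or bound. The threshold was set on windows of 100 bp each side of a position, and 5% of shifted windows pass it. Control regions of 3501 to 16842 bp can therefore hold matches by chance. No background count was made for regions of these lengths, so the numbers of matches per region are not an excess.

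H19, a non-coding RNA, and Igf2, a fetal growth factor, shared a window with 9 Ctcf and 10 Rad21 summits. The strongest Ctcf summit stood in the control region, at chr7:142580323, 2180 bp upstream of H19, with a −log10 q of 43.0. The Rad21 summit of the control region stood 481 bp from it, with a −log10 q of 20.9. A second, weaker Ctcf summit, with a −log10 q of 7.07, lay 896 bp upstream of H19. Strong summits also flanked the pair on both sides. Downstream of H19, 2 stood in the gene Mrpl23, with −log10 q of 37.8 in an intron and 36.5 in a UTR, each with a Rad21 summit nearby. Between H19 and Igf2, 32574 bp upstream of H19, a Ctcf summit of 32.7 had the strongest Rad21 summit of the window, 34.0, at 93 bp. Past Igf2, 2 intergenic Ctcf summits had −log10 q of 23.2 and 19.8, so both genes were enclosed by Ctcf. Of the 5 Ctcf summits with a −log10 q of at least 20, all 5 had Rad21 within 1 kb.

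**Figure D1:**
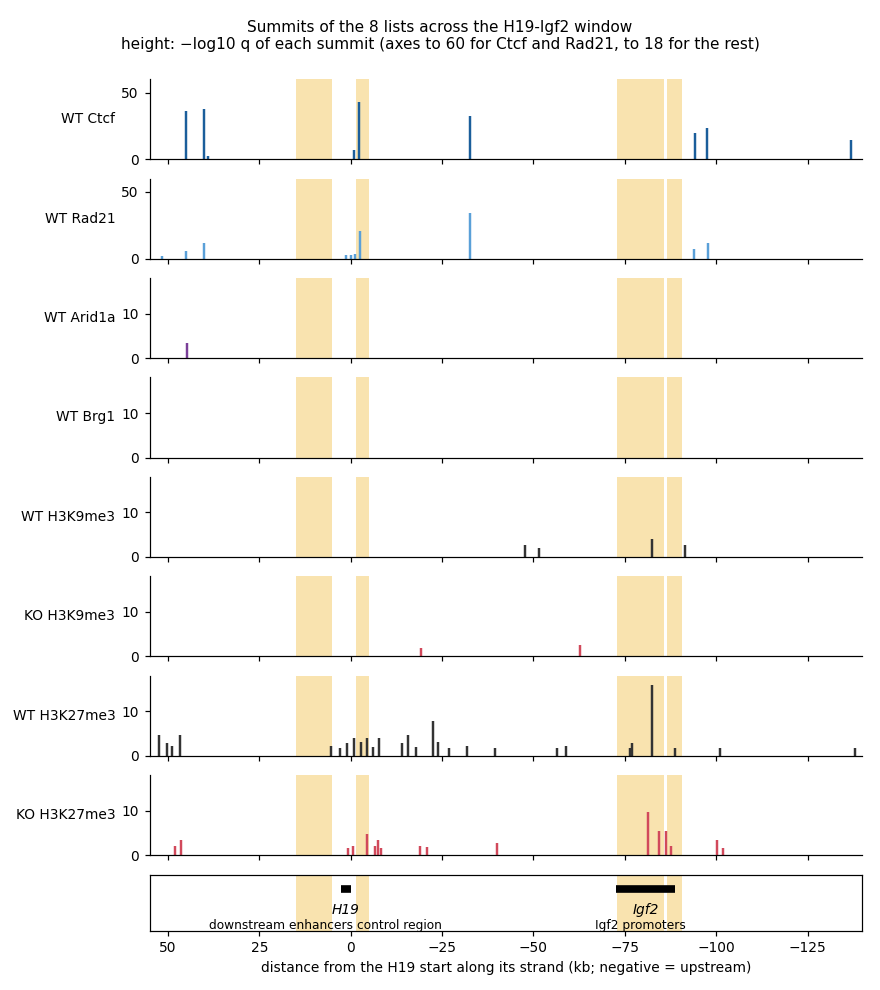
Summits of the 8 lists across the H19-Igf2 window, placed by distance in kb from the H19 start, with Igf2 upstream to the right. The height of each line is the −log10 q of 1 summit, shaded spans are the control regions examined, and black bars are the genes. The strongest Ctcf line, 43.0, stands in the control region, and the tallest H3K27me3 lines stand at the Igf2 promoters in both genotypes.

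H3K27me3 was the more frequent mark of this window. H3K27me3 had 28 summits in WT and 17 in KO, a ratio of 0.607 (95% interval 0.312 to 1.15, Clopper-Pearson). This interval and those of the ratios below cover counting error only. Neighbouring summits are not independent and each genotype had 1 library, so none of them tests a genotype difference. The highest H3K27me3 summit in WT stood at the Igf2 promoters, with a −log10 q of 15.95 at chr7:142660607, in an exon of the antisense gene Igf2os. In KO the strongest stood 9.74 high in an Igf2 intron at chr7:142659583. The H19 control region carried H3K27me3 in both genotypes, with −log10 q of 3.04 and 4.08 in WT and 4.77 in KO. H3K9me3 was listed at the control region in neither genotype, and the whole window had 4 summits in WT and 2 in KO. The enhancers downstream of H19 had 1 summit in all, H3K27me3 in WT. Brg1 had 0 summits in this window and Arid1a had 1, with a −log10 q of 3.33, in the Mrpl23 gene.

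The neighbouring domain holds Kcnq1ot1, a long antisense RNA that silences genes in cis from its promoter KvDMR1, and 2 of the genes it silences. Cdkn1c is a cell cycle inhibitor, and Phlda2 restrains placental growth. KvDMR1 had no Ctcf, Rad21, Arid1a or Brg1 summit and no H3K27me3. It had H3K9me3 in both genotypes, at −log10 q of 1.55 and 2.03 in WT and 2.47 in KO. The Kcnq1ot1 window had 1 Ctcf summit in 193092 bp. That summit, in a Kcnq1 intron, had a −log10 q of 30.3 and a Rad21 summit of 36.5. The Cdkn1c and Phlda2 window, 144812 bp, had 15 Ctcf and 12 Rad21 summits. The strongest Ctcf summit there, 32.7, lay 3071 bp upstream of Cdkn1c with Rad21 at 15.5. The second-strongest Rad21 summit of the domain, 29.0, lay 5486 bp upstream of Cdkn1c and 2415 bp from the nearest Ctcf summit.

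The Cdkn1c promoter itself had only weak Ctcf summits, 4.02 and 3.35, and the Phlda2 promoter 1 of 3.35, and neither had Rad21. The strong sites upstream of the 2 genes each carried a match on the minus strand:
upstream of Cdkn1c, chr7:143464066-143464104: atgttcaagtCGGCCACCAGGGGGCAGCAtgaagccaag
upstream of Phlda2, chr7:143506901-143506939: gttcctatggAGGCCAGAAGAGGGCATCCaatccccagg
The Phlda2 site had a −log10 q of 24.3. All 7 Ctcf summits of this domain with a −log10 q of at least 5 had a match, 4 on the plus strand and 3 on the minus strand.

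Cdkn1c carried the heaviest H3K27me3 of the 10 genes. Its window had 35 summits in WT and 28 in KO, and the WT number per base was above that of 97.7% of all genes. The promoter summit was the strongest of the mark in both genotypes, 17.98 in WT and 12.6 in KO. The Phlda2 window had 21 and 17 and the Kcnq1ot1 window 26 and 13 H3K27me3 summits in WT and KO. The overlapping windows of Cdkn1c and Phlda2 share many of these summits. Merged, the domain had 61 in WT and 41 in KO, a ratio of 0.672 (0.441 to 1.01). Kcnq1ot1 was the only 1 of the 10 genes with more H3K9me3 summits in KO, 7 against 4, with 5 against 3 in its body. Brg1 had 0 summits across the domain and Arid1a had 2.

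Dlk1, a transmembrane protein of the Notch ligand kind, and Meg3, a maternally expressed non-coding RNA, are controlled by the intergenic IG-DMR. The strongest Ctcf summit stood 14896 bp upstream of Dlk1, at chr12:109437927, with a −log10 q of 44.4. Its Rad21 summit, 14.5, was 22 bp away. The other strong pair of the domain lay in Rian, with Ctcf at 5.91 and Rad21 at 6.25. No control region of the domain had a Ctcf or Rad21 summit. The site upstream of Dlk1 is shown on the plus strand:
upstream of Dlk1, chr12:109437894-109437932: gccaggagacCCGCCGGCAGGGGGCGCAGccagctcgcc
H3K9me3 lay on both DMRs in both genotypes. The IG-DMR had 4 summits in WT, the strongest 5.59, and 3 in KO, the strongest 3.80. The Meg3 promoter had 4 in WT, up to 4.03, and 3 in KO, up to 2.47. Neither had H3K27me3. The Dlk1 promoter had H3K27me3 alone, at 9.25 in WT and at 6.30 and 3.38 in KO.

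The lower H3K27me3 counts of the Dlk1 and Meg3 windows in KO lay outside the Dlk1 gene. The Dlk1 window had 13 in WT and 6 in KO, but the 50 kb downstream of the gene had 11 and 1, while the Dlk1 body had 1 and 4. The Meg3 window had 17 in WT and 4 in KO, with 3 and 0 in the Meg3 body, 8 and 1 upstream and 6 and 3 downstream. The downstream flank of Dlk1 and the upstream flank of Meg3 overlap. The merged domain had 22 and 9 summits, a ratio of 0.409 (0.166 to 0.924). That interval treats neighbouring summits as independent and is no test of genotype. Brg1 had 3 summits in the domain and Arid1a 1, none in a control region.

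Peg3, a paternally expressed zinc finger gene, had 3 Ctcf summits in its DMR, at 16.6, 14.4 and 7.91, of the 5 in its window. Rad21 summits there had −log10 q of 5.12 and 2.72. H3K9me3 was listed in both genotypes, with 3 summits in WT, up to 2.96, and 2 in KO, up to 3.11. No H3K27me3 summit lay in the DMR, and the window had 1 in each genotype, the lowest number of the 10 genes. Brg1 had 0 and Arid1a 1 summit in the window.

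Grb10, an adaptor that restrains insulin receptor signalling, is expressed from its main promoter in most tissues and from an internal promoter in brain, where the DMR lies. The strongest Ctcf summit of its window, 44.4, lay in an intron 65088 bp into the gene, with Rad21 of 40.4 at 5 bp. A second Rad21 summit of 30.2 lay 1451 bp from that Ctcf summit, with a Brg1 summit of 3.80 at 110 bp. The internal DMR had Ctcf at 13.3 and Rad21 at 8.65, 10 bp apart in a UTR of Grb10, and Brg1 at 1.65, 58 bp from the Ctcf summit. Its match is shown on the plus strand:
Grb10 internal promoter DMR, chr11:12025857-12025885: agactTCGCCACACGGGGTCGCTGcgtgc
That DMR had the strongest H3K9me3 of the 10 genes in both genotypes, 6.43 in WT and 4.84 in KO. The internal DMR also had weak H3K27me3, 1 summit of 2.29 in WT and 2 in KO, up to 1.63. The main promoter had H3K27me3 up to 10.3 in WT and 3.56 in KO, with 1 H3K9me3 summit of 2.03 in WT and 0 in KO. Over the window, H3K9me3 had 19 summits in each genotype. Grb10 was the only 1 of the 10 genes with more H3K27me3 summits in KO, 10 against 8.

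Igf2r, the receptor that clears Igf2, is silenced on the paternal copy by Airn, an antisense RNA that starts inside it. The strongest Ctcf summit of all 6 domains, with a −log10 q of 55.4 and Rad21 of 36.5 at 48 bp, lay 41027 bp upstream of Igf2r in an Airn intron. Its match was on the minus strand:
upstream of Igf2r, chr17:12810649-12810687: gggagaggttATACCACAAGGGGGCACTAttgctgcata
The Airn and Igf2r promoters had only weak summits. The Airn promoter had Ctcf at 3.35, Rad21 at 3.34 and 3.80 and Brg1 at 3.80, and the Igf2r promoter had Rad21 at 2.63 and Brg1 at 3.16. Igf2r was also the window with the most Brg1 summits, 16 of the 27 in all domains.

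**Figure D2:**
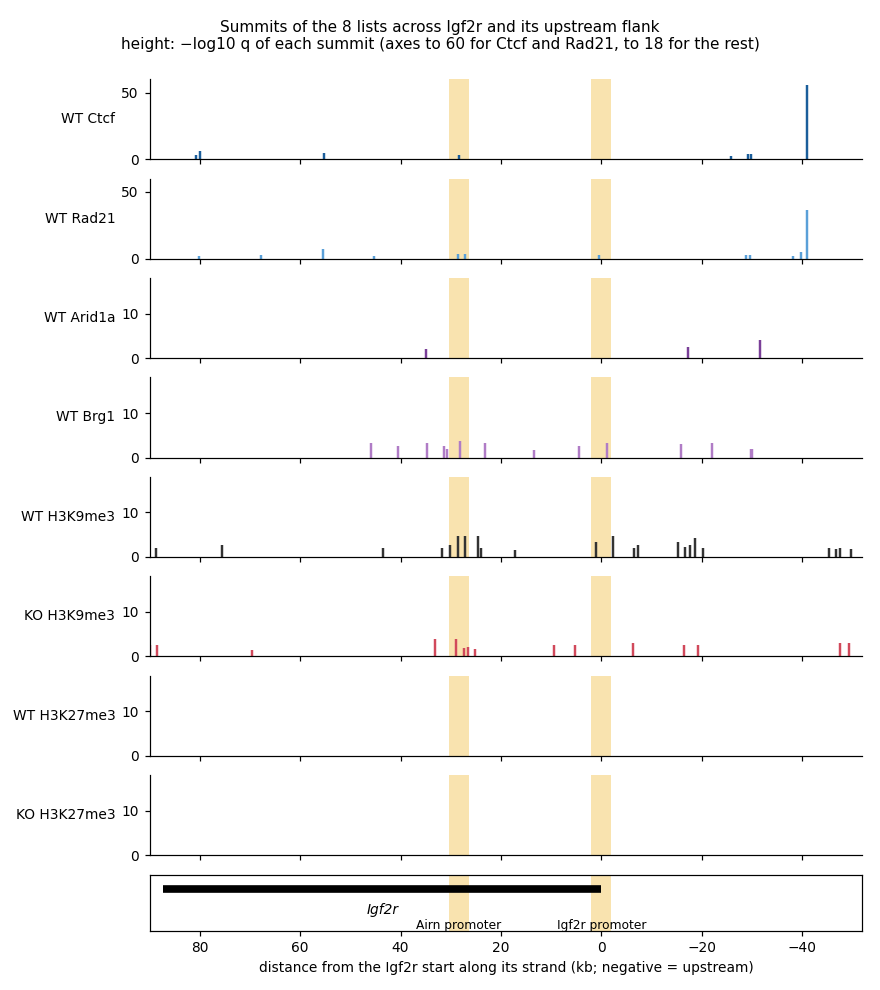
Summits of the 8 lists across the Igf2r gene and the 50 kb upstream of it, placed by distance in kb from the Igf2r start, with downstream to the left. The height of each line is the −log10 q of 1 summit, shaded spans are the Airn and Igf2r promoter regions, and the black bar is Igf2r. A Ctcf line of 55.4 stands upstream of the gene, H3K9me3 stands at the Airn promoter in both genotypes and at several other places in the gene and upstream of it, and no H3K27me3 summit lies in the plotted span.

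At the Airn promoter, H3K9me3 had 3 summits in WT, up to 4.79, and 3 in KO, up to 3.80. At the Igf2r promoter it had 1 in WT, 3.33, and 0 in KO. The window had 24 H3K9me3 summits in WT and 18 in KO. H3K27me3 had 20 and 9, and 0 of these lay in the Igf2r body in either genotype. All of them lay in the 50 kb downstream, so the H3K27me3 difference counted for Igf2r below lay outside the gene.

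Across the 14 control regions, Ctcf was listed in 6, Rad21 in 6 and both in 4. Those 4 were the H19, Peg3, Grb10 internal and Airn regions, all of them germline DMRs. With each region extended by 1 kb on both sides, 6 held both, since Rad21 summits then entered at the Cdkn1c and Phlda2 promoters, which are not germline DMRs. Arid1a was listed in 0 of the 14, and Brg1 in 3, the Grb10 internal, Igf2r and Airn promoters. For scale, within 2 kb of the start of all 30751 genes a summit was listed at 37.0% for Ctcf, 44.1% for Rad21, 30.3% for both, 30.0% for Arid1a and 33.8% for Brg1. Of the 14 control regions, 7 were 4001 bp long, 6 were longer, up to 16842 bp, and H19 was 3501 bp, so the shares are a rough scale only. A Ctcf summit was listed at 4 of the 6 germline DMRs, but not at KvDMR1 or the IG-DMR. The one at Airn was weak, 3.35, in a region without a match. At a −log10 q of at least 5 only 3 control regions kept a Ctcf summit, and at 20 only 1.

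**Figure D3:**
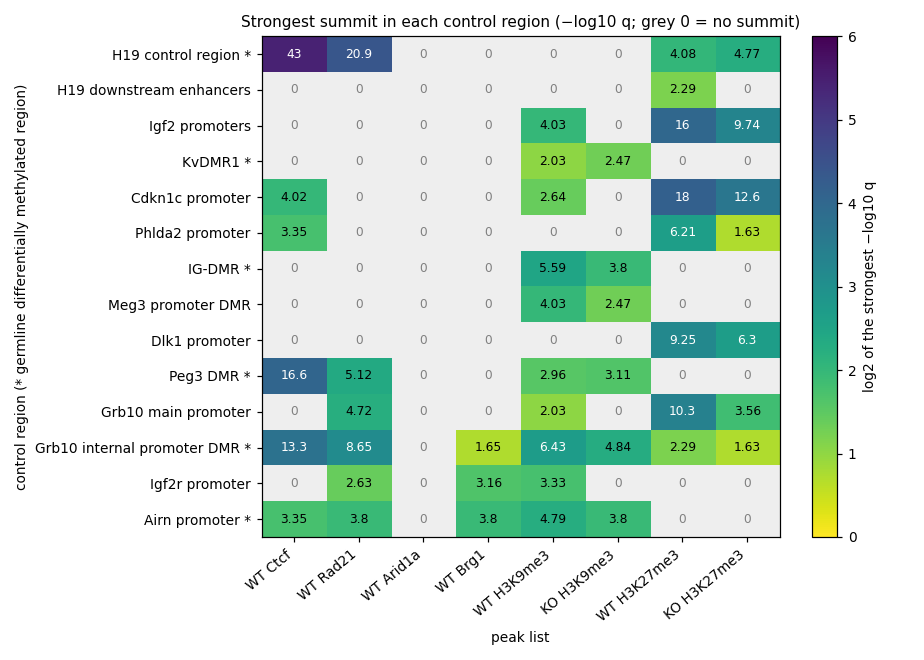
The strongest summit of each list in each of 14 control regions. Rows are regions, columns are lists, the number in a cell is the −log10 q and the colour its log2, and a grey 0 means no summit. Asterisks mark the germline DMRs, and 5 of those 6 have H3K9me3 in both genotypes while the Arid1a column is empty.

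Sorting the regions into 6 germline DMRs and 8 others, a grouping taken from background knowledge after the values were seen, separated the marks in part. H3K9me3 was listed in both genotypes at 5 of 6 germline DMRs, all but H19, and at 1 of 8 others, the Meg3 promoter DMR. In WT alone it was listed at 5 of 6 and 5 of 8, and in KO alone at 5 of 6 and 1 of 8. At gene starts in general, 35.6% had H3K9me3 within 2 kb in WT, 14.7% in KO and 7.38% in both. H3K27me3 ran the other way, in both genotypes at 2 of 6 germline DMRs and 5 of 8 others. The share of gene starts with it in both genotypes was not counted. In single genotypes it was 22.1% of starts in WT and 18.6% in KO. The 4 other control regions with H3K9me3 in WT only were the Igf2, Cdkn1c, main Grb10 and Igf2r promoters. With 1 library per genotype, a difference between genotypes at those 4 was not tested.

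The hexamer TGCCGC, searched on both strands after the marks had been seen, was denser at the germline DMRs than around most gene starts. The 6 held 39 copies, at 0.667 to 2.0 per kb, while 47.1% of all 4-kb windows around gene starts held any copy, with a median of 0 and a 90th percentile of 0.50 per kb. Of the 6 copies at H19, 2 lay inside the Ctcf matches printed above. Density did not fully set germline DMRs apart from the other control regions. The main Grb10 promoter held 4 copies, 0.99975 per kb, above KvDMR1 at 0.75 and the internal Grb10 DMR at 0.667. The Cdkn1c promoter held 3, at 0.75 per kb, the same as KvDMR1. The remaining other control regions had 0 to 0.50 per kb. The densest 150 bases of 3 regions that carried H3K9me3 in both genotypes are shown on the plus strand of GRCm38, with the hexamer or its complement in capitals:
IG-DMR, intergenic, chr12:109528286-109528435: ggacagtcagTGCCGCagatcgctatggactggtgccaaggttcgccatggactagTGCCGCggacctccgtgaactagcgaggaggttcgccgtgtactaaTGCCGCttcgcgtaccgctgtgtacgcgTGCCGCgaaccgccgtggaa
KvDMR1, Kcnq1ot1 exon, chr7:143295659-143295808: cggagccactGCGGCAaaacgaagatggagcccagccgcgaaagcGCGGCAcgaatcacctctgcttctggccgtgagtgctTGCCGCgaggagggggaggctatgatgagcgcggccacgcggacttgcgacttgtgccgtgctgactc
Peg3 DMR, Peg3 intron, chr7:6730052-6730201: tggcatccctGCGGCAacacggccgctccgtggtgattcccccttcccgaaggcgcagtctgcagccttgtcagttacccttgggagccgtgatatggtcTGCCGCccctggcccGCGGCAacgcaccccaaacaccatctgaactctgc
The centres of these stretches lay 806, 138 and 392 bp from the nearest WT H3K9me3 summit, in that order. From the nearest KO summit they lay 150, 44 and 176 bp away. At the internal Grb10 DMR and the Airn promoter, not printed, the distances were 372 and 668 bp in WT and 195 and 548 bp in KO. These regions were taken because they held H3K9me3 summits, so short distances were largely set by that choice. No background distance was counted.

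Over all 6 domains, Rad21 summits had Ctcf nearby about as often as in the genome, and Ctcf summits had Rad21 nearby somewhat more often. The Ctcf summits here were also more often strong, 51.9% with a −log10 q of at least 5, against 41.2% of all. Of 52 Ctcf summits, 36 had a Rad21 summit within 1 kb, 69.2% (Wilson 95% interval 55.7 to 80.1), against 55.7% of all Ctcf summits. Of 62 Rad21 summits, 34 had Ctcf within 1 kb, 54.8% (42.5 to 66.6), against 52.0%. Among Ctcf summits with a −log10 q of at least 5, 25 of 27 had Rad21 of any strength, against 82.3% in the genome. At 20 or more all 13 had it, against 97.9%. A Ctcf summit of at least 20 lay in 8 of the 10 gene windows, all but Peg3 and Meg3, against 68.5% of all gene windows. Windows of neighbouring genes overlap and share some of these summits, so the 8 are not independent. The intervals cover counting error only, and neighbouring summits are not independent.

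SWI/SNF summits were sparse in most of the 10 gene windows, but not in all. The median window of the 10 had 0 Brg1 summits per 100 kb, against 3.56 over all genes, and 0.848 Arid1a summits, against 2.91. Igf2r went the other way for Brg1 only, with 8.54 summits per 100 kb, above 78.4% of all genes. Grb10 had 3.84 Brg1 and 3.36 Arid1a summits per 100 kb, above 52.4% and 53.5% of all genes. Lower medians were not particular to SWI/SNF. The median window of the 10 had 3.70 Ctcf and 4.72 Rad21 summits per 100 kb, against 5.65 and 5.93 over all genes. Brg1 had 0 summits in 6 of the 10 gene windows, those of H19, Igf2, Cdkn1c, Phlda2, Kcnq1ot1 and Peg3, against 19.6% of all gene windows. These 6 windows lie in 3 domains on chromosome 7, and several overlap. Of the 15 Arid1a and 27 Brg1 summits in the domains, none had a −log10 q of 5 or more, against 2.49% of all Arid1a and 3.94% of all Brg1 summits, shares too small to set 0 apart in lists this short. An Arid1a summit lay within 1 kb of 1 of the 27 Brg1 summits, 3.70% (0.657 to 18.3), against 27.5% in the genome. Of the 52 Ctcf summits, 6 had Brg1 and 2 had Arid1a within 1 kb, 11.5% and 3.85%, against 18.2% and 14.9%.

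Between genotypes, H3K27me3 summits in the 6 domains numbered 140 in WT and 87 in KO, a ratio of 0.621 (0.470 to 0.818), and H3K9me3 summits 72 and 60, a ratio of 0.833 (0.582 to 1.19). Over all gene windows the ratios were 0.781 and 0.823. Merged within 3 kb, the H3K27me3 summits of the domains numbered 57 in WT and 38 in KO. The intervals count neighbouring summits as independent and are no test of genotype. The median gene of the 10 had 12.4 H3K27me3 summits per 100 kb in WT and 5.73 in KO, both above the medians of all genes, 2.33 and 0.979. For H3K9me3 the 10 genes had medians of 3.06 in WT and 2.09 in KO, under the 7.12 and 4.37 of all genes. Lists of 1 library each also differ in total length by depth and enrichment, which cannot be told apart from genotype here.

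**Figure D4:**
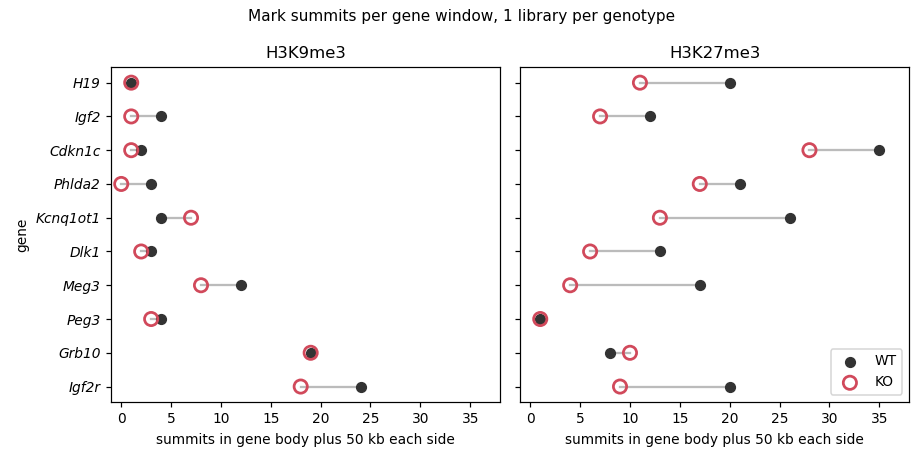
H3K9me3 and H3K27me3 summits in the window of each of the 10 genes, with 1 filled point for the WT library and 1 open circle for the KO library. H3K27me3 is lower in KO for 8 genes, equal at 1 for Peg3 and higher for Grb10, 10 against 8, and H3K9me3 at Grb10 is 19 in both.

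A gene counted as changed where (KO + 1)/(WT + 1) summits passed 2-fold, among genes with at least 10 summits in both libraries together. For H3K27me3, 9 of the 10 genes had enough summits, and 3 were at least 2-fold lower in KO, Meg3 (log2 ratio −1.85), Igf2r (−1.07) and Dlk1 (−1.0, on the threshold), and 0 higher. Over all genes 17.1% were lower and 1.40% higher. Kcnq1ot1, just outside the threshold, had −0.95. The median ratio of the 9 was 0.571, against 0.778 over all genes. For H3K9me3, 4 genes had enough summits, 0 of the 4 were 2-fold lower and 0 higher, against 38.6% and 6.85% of all genes. With only 4 genes, 0 cannot be set apart from those shares. The ratios of the 4 genes ran from 0.692 for Meg3 to 1.6 for Kcnq1ot1, with a median of 0.880 against 0.647.

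**Figure D5:**
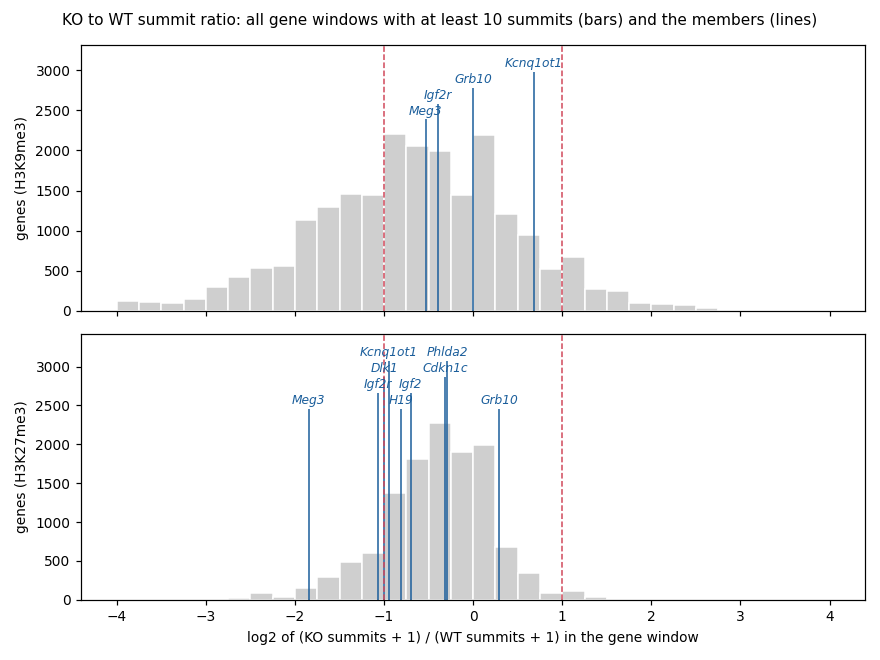
Number of genes by log2 of the KO to WT summit ratio, with 1 added to each count, for all gene windows with at least 10 summits of the mark (grey bars), and the imprinted genes as blue lines. Dashed lines mark 2-fold. The H3K9me3 lines lie within 2-fold, and Meg3, Igf2r and Dlk1 reach or pass 2-fold lower for H3K27me3.

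A wider list of 46 imprinted genes, drawn up from general knowledge, was counted in the same way. For H3K27me3, 30 of the 46 had enough summits, 5 were at least 2-fold lower (Rtl1, Rian, Dio3, Slc22a2 and Impact) and 0 higher, against the 17.1% and 1.40% of all genes, with a median ratio of 0.710. Rtl1 and Rian neighbour Meg3, and Slc22a2 neighbours Igf2r, so their windows share summits with those above. For H3K9me3, again 30 had enough, 3 were lower (Osbpl5, Ddc and Nespas) and 2 higher (Peg12 and Sfmbt2), against 38.6% and 6.85%, with a median of 0.845.

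Summit positions of a mark matched only in part between genotypes. Of 140 WT summits in the domains, 63 had a KO summit within 1 kb, 45.0% (37.0 to 53.3), against 54.4% in the genome, and 58 of 87 KO summits had a WT one, 66.7% (56.2 to 75.7), against 68.3%. For H3K9me3 the shares were 36.1% of 72 and 41.7% of 60, against 31.1% and 33.3%. A −log10 q of at least 5 was reached by 2 WT H3K9me3 summits in the domains, at the Grb10 DMR and the IG-DMR, 2.78% against 4.13% of all summits of that list. In the KO list 0 did, against 4.85%. For H3K27me3, 11 WT summits did, 7.86% against 11.3%, and 6 KO summits, 6.90% against 11.8%.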

How the data were processed

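ChIP-seq libraries of AB17 hepatocytes were represented by 8 deposited lists of peak summits, 1 library per group, grouped by genotype and antibody from the sample titles. The study's methods state that reads were mapped to mm10 by bowtie2, filtered by SAMtools and cleared of duplicates by Picard, and that the authors ran MACS2 with default settings and the matching input. Versions and pooling were not given in the sources used here. The deposited values were −log10 q-values, a unit read from the values, all above 1.30, and the broad marks were called as narrow summits, so 1 domain can count several times.

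The 10 genes, the lists of genes and the control regions were chosen with earlier results of these data known. Control regions were placed from general knowledge by distance from GENCODE vM21 starts, not from these data. The germline DMR grouping and the hexamer were chosen after values were seen. The named sites were to be the 3 strongest Ctcf and Rad21 summits per domain, the strongest of each other list, and those in control regions. The text gives the leading ones. Counts per gene, shares with a partner within 1 kb (Wilson intervals) and ratios of counts (Clopper-Pearson intervals) were computed in Python 3.11.15 with numpy 2.4.6 and scipy 1.17.1, and drawn with matplotlib 3.10.9. Scripts were tested on simulated summits. The Ctcf matrix was learned from windows around 16421 summits outside the imprinted domains of at least 20. A match threshold that 1% of shifted windows pass was tried first and was relaxed to 5% after the scores were seen. No test was run, since each group had 1 library. Alternatives were a −log10 q of at least 5, merging within 3 kb, equal list lengths, windows of 10 and 100 kb, and other partner distances. Results at 1 locus beside Igf2r are not reported here.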

Additional observations from a re-analysis of the deposited data

How the results depend on the processing

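The KO to WT ratio of H3K27me3 summits in the domains, 0.621, was 0.837 with equal numbers of summits in both lists and 0.900 with windows of 10 kb, and 0.545 to 0.667 otherwise. The 3 genes at least 2-fold lower became 1 (Meg3) with equal numbers and 0 with windows of 10 kb. Merging gave 2, Igf2 and Meg3, so Igf2r and Dlk1 were lost and Igf2 was gained. The H3K9me3 ratio stayed between 0.833 and 0.882. With a −log10 q of at least 5 it had no KO summit and gave no value, and no gene had enough summits of either mark. The share of Rad21 summits with Ctcf was 37.1% within 200 bp and 86.4% with at least 5 in both lists. The share of Ctcf summits with Rad21 was 44.2% within 200 bp and 81.0% in windows of 10 kb. Control regions with Ctcf numbered 3 at a −log10 q of at least 5 and 1 at 20, and those with both Ctcf and Rad21 numbered 1 at 20 and 6 with regions extended by 1 kb. Under the match threshold tried first, which 1% of shifted windows pass, 13 of 52 Ctcf summits and 11 of the 27 of at least 5 had a match, and the H19 control region had 0. The 5% threshold of the report was chosen after seeing the data. The cause of these moves was not tested. No paired analysis was possible because each group had 1 library and no replicate number. Limits are 1 library per group, unknown depth, broad marks reduced to summits and indistinguishable alleles.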
